A study of Mus musculus with 8 samples.

Results

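The genes described here are 9 genes of plasma lipoprotein metabolism, taken from the 22183 genes of the deposited count table by their symbols: the lipases Lpl, Lipc and Lipg, the lipase partner Gpihbp1, the angiopoietin-like genes Angptl4 and Angptl6, and the HDL remodelling genes Pltp, Lcat and Abca1. Each symbol had 1 row. They were measured by RNA sequencing of whole liver of mice, in 4 control libraries (genotype Stat3flox/flox) and 4 knockout libraries (Stat3flox/flox with Alb-Cre). All 8 libraries came from mice gavaged each day for 2 weeks with 20% alcohol at 15 µL per g, so both groups carried the floxed Stat3 alleles and both had been given alcohol, and no group without alcohol was analysed here. Stat3 encodes a transcription factor activated by cytokines of the interleukin-6 family. Alb-Cre places Cre recombinase under the albumin promoter, which is active in hepatocytes. Stat3 in liver cells that have not used this promoter is not its target. The question the design asks is how loss of hepatocyte Stat3 changes gene expression in the liver under alcohol. The sources used here give neither the age nor the sex of the mice.

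Triglyceride carried in the blood by chylomicrons and very low density lipoproteins is released by lipases held at the surface of capillaries. Lipoprotein lipase does this in muscle and fat, hepatic lipase works in the liver on remnants and on HDL, and endothelial lipase acts mainly on HDL phospholipid. GPIHBP1 carries lipoprotein lipase across the endothelial cell to the capillary lumen, while angiopoietin-like proteins such as ANGPTL4 inactivate it. HDL itself is begun by ABCA1, which exports cholesterol and phospholipid from cells, is matured by LCAT, which esterifies the cholesterol, and is enlarged by PLTP, which moves phospholipid between particles. ANGPTL6 belongs to the angiopoietin-like family by sequence but is not an established lipase inhibitor.

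The promoters of Pltp and Angptl6 are shown because these were the members whose knockout and control libraries did not overlap. Each is the 250 bases before the RefSeq transcription start on GRCm38.p6, read on the minus strand, for Pltp at chr2:164857709-164857958 and for Angptl6 at chr9:20879711-20879960. The last base printed lies just before the start, and capitals mark a motif match.
Pltp: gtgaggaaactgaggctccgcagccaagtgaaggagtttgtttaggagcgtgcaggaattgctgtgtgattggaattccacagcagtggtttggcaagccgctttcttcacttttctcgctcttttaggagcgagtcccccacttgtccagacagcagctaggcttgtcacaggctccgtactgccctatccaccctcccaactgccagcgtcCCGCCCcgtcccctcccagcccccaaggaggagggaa
Angptl6: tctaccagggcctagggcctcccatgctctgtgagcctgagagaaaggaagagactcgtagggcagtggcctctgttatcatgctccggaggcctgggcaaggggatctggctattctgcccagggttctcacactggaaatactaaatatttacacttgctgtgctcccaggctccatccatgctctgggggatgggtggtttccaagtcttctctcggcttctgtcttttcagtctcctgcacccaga
Both strands were searched for the STAT palindrome TTCNNNGAA, the nuclear receptor half-site AGGTCA, the GC box GGGCGG and the TATA sequence TATAAA, none of which overlapped another in these windows. Pltp held 1 match, a GC box on the opposite strand that begins 37 bases before the start, and Angptl6 held none. Among 32851 promoter windows of the same length, TTCNNNGAA was found in 7.02%, AGGTCA in 14.0%, GGGCGG in 32.7% and TATAAA in 12.4%. The promoters were 57.6% (Pltp) and 54.8% (Angptl6) G or C, against a median of 52.4% over all windows. A promoter sequence was matched for 5 of the 9 genes.

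The libraries held 15998391 to 19474696 counts. Stat3, the targeted gene, stood at 75.1, 72.9, 46.8 and 72.1 CPM (counts relative to the scaled library total) in controls 1 to 4 and at 27.3, 25.1, 29.7 and 28.4 CPM in knockouts 1 to 4, so every knockout library lay below every control. By edgeR's quasi-likelihood test it fell by 1.27 (log2, SE 0.17) with an adjusted p of 0.0469. Y-linked reads were absent or nearly so (1 to 5 counts) in controls 1 and 2 and knockout 1 and present (294 to 1672 counts) in the other 5 libraries. Albumin took 27.3% of the counts of control 2, against 7.46 to 13.8% elsewhere. Summed markers of Kupffer cells and macrophages ranged from 45.7 to 616 CPM in control, lowest in control 3, and from 80.1 to 125 CPM in knockout. The 6 stellate cell markers summed to 179 to 277 CPM in control and 218 to 384 CPM in knockout. Of these, 3 (Lrat, Des and Reln) were higher in every knockout library than in any control. Dcn, Col1a1 and Rgs5 overlapped between groups, with log2 fold changes of 0.32, 0.11 and −0.23. The part of the stellate cell markers in the values of the 9 genes was not tested. The hepatocyte markers were high in every library (100700 to 339200 summed CPM, most of it from Alb), as the tissue label states. In whole liver, fewer cells of a type and less RNA per cell cannot be told apart.

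Across the 9 genes, the largest differences were higher levels of Pltp, Angptl6 and Gpihbp1 and a lower level of Lpl in knockout, while Lipc, Angptl4, Lcat and Abca1 differed by a log2 fold change of at most 0.15 in size. None passed the test over all genes: 0 of 9 were called by edgeR's quasi-likelihood test at an adjusted p under 0.05, where 0.0342% of the 11692 tested genes were called. All 9 passed the filter on low counts. At an unadjusted p under 0.05, 3 were higher (5.55% of all genes) and 1 was lower (8.47% of all genes). Knockout libraries all lay above the controls in 2 of the 9 (3.22% of all genes) and all below them in 0 (3.86% of all genes). DESeq2 called 3 of the 9, namely Pltp, Angptl6 and Gpihbp1, against 2.31% of all genes, and limma-voom called 0 of the 9, as of all genes (0.00%). The 9 genes had a median log2 fold change of 0.15, against −0.03 over all genes tested, and it lay between 0.11 and 0.25 with 1 library left out, highest without control 1. They were chosen with earlier results of these data known, so these counts describe them and are not evidence about them as a set.

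**Figure D1:**
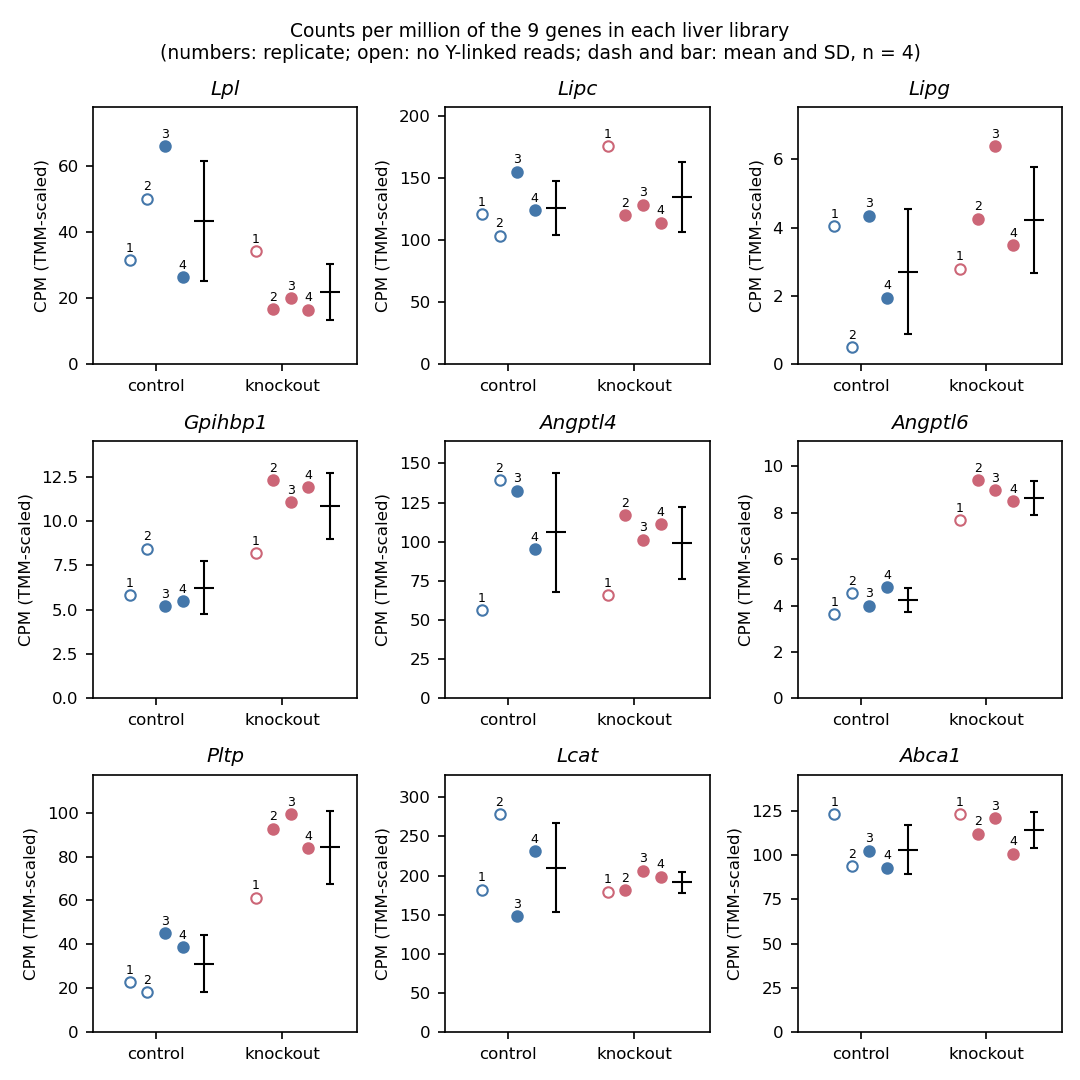
Level of each of the 9 genes in CPM (vertical axes, TMM-scaled, from 0) in the 4 control and 4 knockout libraries (points, numbered by replicate, open where Y-linked reads were absent or nearly so), with the mean and SD beside them. The groups separate for Pltp and Angptl6, nearly separate for Gpihbp1, and overlap in the other 6 genes.

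Lpl encodes lipoprotein lipase, which adult hepatocytes make at low levels. It stood at 31.5, 50.1, 66.0 and 26.4 CPM in controls 1 to 4 and at 34.2, 16.6, 20.1 and 16.6 CPM in knockouts 1 to 4. Knockouts 2, 3 and 4 lay below every control, whereas knockout 1 lay above controls 1 and 4, so the groups overlapped. The control mean was 43.5 ± 18.1 CPM and the knockout mean 21.9 ± 8.39 CPM (SD, n = 4 each), a log2 fold change of −0.99 (SE 0.32, 95% interval −1.69 to −0.28) that did not pass (adjusted p = 0.246, edgeR). Control 3, the library with the lowest Kupffer cell and macrophage markers (45.7 CPM), held the highest Lpl, and the part of these markers in the Lpl value was not tested. Of 7 adipocyte markers, the defining genes Adipoq, Plin1 and Lep were at 0 counts in all 8 libraries, which allows up to 0.129 to 0.213 CPM per library by counting error. The adipocyte markers summed to 7.96 to 20.9 CPM in control and 11.9 to 18.2 CPM in knockout, most of it from Fabp4 (7.96 to 20.8 CPM and 9.52 to 14.2 CPM), which capillary endothelium also makes. Cidea was at 0 to 0.142 CPM in control and at 0 in knockout 1, against 1.26 to 2.37 CPM in knockouts 2 to 4. Cfd was likewise at 0 to 0.119 CPM in control and at 0 in knockout 1, against 0.520 to 1.55 CPM in knockouts 2 to 4. Knockouts 2 to 4 were also the libraries with the lowest Lpl, and the part of Cidea, Cfd and the other adipocyte markers in the Lpl value was not tested. The value for Lpl was −1.38 among the 5 libraries with Y-linked reads (adjusted p = 0.112) and −0.40 without controls 2 and 3 (adjusted p = 0.477).

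Lipc encodes hepatic lipase, which hepatocytes secrete and which stays bound in the liver. It stood at 121, 104, 155 and 124 CPM in controls 1 to 4 and at 176, 120, 129 and 114 CPM in knockouts 1 to 4. The groups overlapped over most of their range, with the highest value in knockout 1. Its log2 fold change was 0.10 (SE 0.19, adjusted p = 0.854, edgeR), with a 95% interval for the fold of 0.799 to 1.43. The sign was not stable, at −0.056 without knockout 1 and −0.21 in the libraries with Y-linked reads alone.

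Lipg encodes endothelial lipase, a phospholipase that acts on HDL. It was the lowest of the 9, with 94, 7, 73 and 39 counts in controls 1 to 4 (4.05, 0.497, 4.35 and 1.95 CPM) and 53, 63, 106 and 67 counts in knockouts 1 to 4 (2.80, 4.26, 6.38 and 3.49 CPM). Control 2 was far below the other libraries and the groups overlapped. The log2 fold change was 0.62 (SE 0.51, adjusted p = 0.599, edgeR), with a 95% interval for the fold from 0.708 to 3.35. It lay at 0.29 (SE 0.36) without control 2, the lowest of 19 alternatives.

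Set against each other per kilobase of exon, the 3 lipases kept the same order in both groups. Lipc made up most of their summed length-scaled level, at 92.6 ± 2.14% in the control and 95.5 ± 0.454% in the knockout libraries (SD, n = 4 per group). Lpl made up 5.0, 9.02, 7.93 and 4.15% in controls 1 to 4 and 3.82, 2.71, 3.04 and 2.86% in knockouts 1 to 4. Its share was lower in every knockout library than in any control, the closest pair being control 4 and knockout 1. Lpl in CPM overlapped between groups, at 34.2 in knockout 1 against 31.5 and 26.4 in controls 1 and 4. Lipc, most of the sum, was highest in knockout 1 (176 CPM). The share of Lpl, and the part of Lipc in it, was not tested.

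Gpihbp1 encodes the endothelial protein that binds lipoprotein lipase and brings it to the capillary lumen. It stood at 5.81, 8.44, 5.18 and 5.49 CPM in controls 1 to 4 and at 8.19, 12.3, 11.1 and 11.9 CPM in knockouts 1 to 4. Control 2 lay just above knockout 1, and apart from that pair every knockout library was higher. Means were 6.23 ± 1.49 and 10.9 ± 1.86 CPM, 1.75-fold higher (95% interval 1.27 to 2.41), with a log2 fold change of 0.81 (SE 0.21) that did not pass (adjusted p = 0.175, edgeR). It passed in the libraries with Y-linked reads alone (1.14, adjusted p = 0.0274, edgeR). That subset leaves out controls 1 and 2 and knockout 1, and with them the overlapping pair. With a term for Y-linked reads over all libraries, Gpihbp1 had a value of 0.81 and did not pass (adjusted p = 0.2, edgeR). Endothelial markers overlapped between groups: the 6 sinusoidal markers summed to 55.2 to 119 CPM in control and 104 to 124 CPM in knockout, and the 6 markers of continuous capillaries and large vessels to 42.3 to 88.3 CPM and 74.8 to 94.6 CPM. Control 3 was lowest for both sums and for Gpihbp1, and the part of endothelial content in the Gpihbp1 value was not tested.

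Angptl4 encodes a secreted protein, induced in fasting and by fatty acids through PPAR receptors, that inactivates lipoprotein lipase. It stood at 56.5, 139, 133 and 95.2 CPM in controls 1 to 4 and at 65.8, 117, 101 and 111 CPM in knockouts 1 to 4. The knockout libraries lay within the range of the controls. The log2 fold change was −0.10 (SE 0.28, adjusted p = 0.900, edgeR), with a 95% interval for the fold of 0.607 to 1.44. Replicate 1 was the lowest library of each genotype, and without controls 2 and 3 the value was 0.38.

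Angptl6 encodes a hepatocyte-secreted angiopoietin-like protein that, in mouse experiments, has been tied to energy expenditure and resistance to obesity. It stood at 3.62, 4.54, 3.99 and 4.79 CPM in controls 1 to 4 and at 7.66, 9.39, 8.97 and 8.48 CPM in knockouts 1 to 4. Every knockout library was above every control, and the spread within each group was small. The mean went from 4.24 ± 0.532 to 8.63 ± 0.743 CPM (SD, n = 4 each), 2.04-fold higher (95% interval 1.56 to 2.66), with a log2 fold change of 1.03 (SE 0.17) and an adjusted p of 0.0583 by edgeR, just short of the threshold. The value ranged from 0.96 to 1.10 over 19 alternatives. In the GENCODE M21 annotation, Angptl6 shares 265 exon bases with Shfl, an interferon-induced inhibitor of ribosomal frameshifting on the opposite strand, and its deposited counts were not whole numbers (for example 83.67 in control 1). Shfl itself averaged 7.36 ± 1.29 and 10.8 ± 2.54 CPM, with overlapping groups (log2 fold change 0.54, SE 0.22, adjusted p = 0.306). How reads were divided between the 2 genes is uncertain, since the use of strand is not stated.

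**Figure D2:**
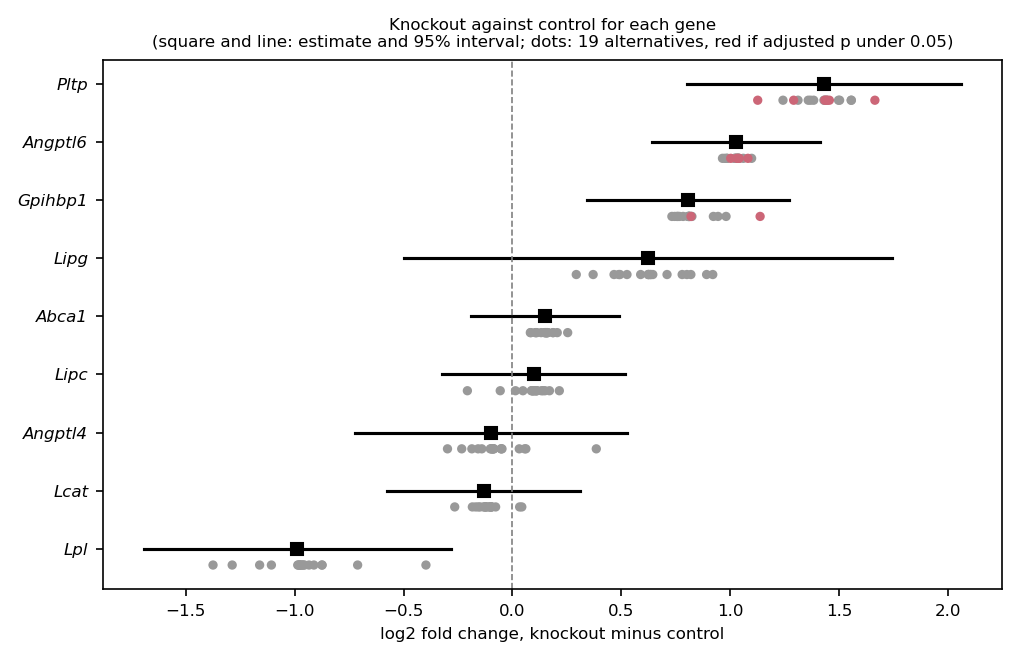
Log2 fold change of knockout minus control (horizontal axis) for each gene, as the estimate with its 95% interval (square and line) and under 19 alternatives (dots, red where the adjusted p was under 0.05). Intervals for Pltp, Angptl6, Gpihbp1 and Lpl exclude 0 before adjustment for the number of genes tested, and those of the other 5 genes include it.

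Pltp encodes the plasma phospholipid transfer protein, which feeds surface phospholipid of triglyceride-rich particles into HDL. It had the largest fold change of the 9. It stood at 22.7, 18.2, 45.3 and 38.9 CPM in controls 1 to 4 and at 61.3, 92.7, 99.2 and 83.7 CPM in knockouts 1 to 4. Every knockout library was above every control, and in each genotype the libraries without Y-linked reads were the lowest. The mean went from 31.3 ± 12.9 to 84.2 ± 16.5 CPM (SD, n = 4 each), 2.69-fold higher (95% interval 1.74 to 4.17), with a log2 fold change of 1.43 (SE 0.29, adjusted p = 0.0820, edgeR). With a model term for whether a library held Y-linked reads, the value was 1.29 with a smaller SE of 0.15, and it passed (adjusted p = 0.0111). Among the libraries with Y-linked reads alone it was 1.13 (adjusted p = 0.0153). Without control 3 it was 1.66 (adjusted p = 0.0131), and leaving out any 1 of the other 7 libraries gave 1.24 to 1.56 with an adjusted p of 0.0539 to 0.297.

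Pltp overlaps Ctsa, the lysosomal protective protein cathepsin A, by 495 exon bases on the opposite strand, and its counts were likewise not whole. Ctsa stood at 65.7, 111, 94.1 and 101 CPM in controls 1 to 4 and at 67.1, 92.1, 87.4 and 88.7 CPM in knockouts 1 to 4. These groups overlapped, and the log2 fold change of Ctsa was −0.15 (SE 0.19, adjusted p = 0.757). Macrophages also make PLTP, and the summed macrophage markers of every knockout lay below those of controls 1, 2 and 4 and above that of control 3. Their part in the Pltp value was not tested.

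Lcat encodes the enzyme that esterifies cholesterol on HDL and is made almost wholly by hepatocytes. It stood at 182, 278, 148 and 231 CPM in controls 1 to 4 and at 180, 181, 206 and 199 CPM in knockouts 1 to 4. The knockout libraries lay close together within the wide range of the controls. The log2 fold change was −0.13 (SE 0.20, adjusted p = 0.798, edgeR), with a 95% interval for the fold of 0.671 to 1.24. It was 0.033 without control 2, the library with the highest value, and 0.043 in the libraries with Y-linked reads alone.

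Abca1 encodes the transporter that hands cholesterol and phospholipid to lipid-poor apolipoprotein A-I, and it varied least of the 9. It stood at 123, 93.8, 102 and 92.9 CPM in controls 1 to 4 and at 123, 112, 121 and 101 CPM in knockouts 1 to 4. The groups overlapped, with replicate 1 highest in each. The log2 fold change was 0.15 (SE 0.15, adjusted p = 0.688, edgeR), with a 95% interval for the fold of 0.876 to 1.40.

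Levels were compared between genes only after division by the exon length of each gene in GENCODE M21, in CPM per kb. In control the order was Lcat (156 ± 42.4), Lipc (58.5 ± 9.996), Angptl4 (29.9 ± 10.8), Pltp (12.2 ± 5.03), Abca1 (9.94 ± 1.34), Lpl (4.15 ± 1.73), Angptl6 (2.68 ± 0.336), Gpihbp1 (2.44 ± 0.585) and Lipg (0.575 ± 0.386, all SD, n = 4). Among neighbours in this order, the libraries of Angptl4 and Pltp, of Pltp and Abca1, of Lpl and Angptl6, and of Angptl6 and Gpihbp1 overlapped, and the other 4 neighbouring pairs did not. In knockout, Pltp (32.9 ± 6.46 CPM per kb) stood next after Lipc, overlapping Angptl4 (27.9 ± 6.50). Lpl (2.09 ± 0.801) stood below Angptl6 (5.45 ± 0.470) and, by its mean, below Gpihbp1 (4.26 ± 0.728). Lpl and Gpihbp1 overlapped, with Lpl above Gpihbp1 in knockout 1 (3.267 and 3.206 CPM per kb). These levels rest on the union of all annotated exons, 10478 bases for Lpl and 10363 for Abca1 against 1342 for Lcat, and a gene whose liver transcripts are shorter than that union would read too low.

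**Figure D3:**
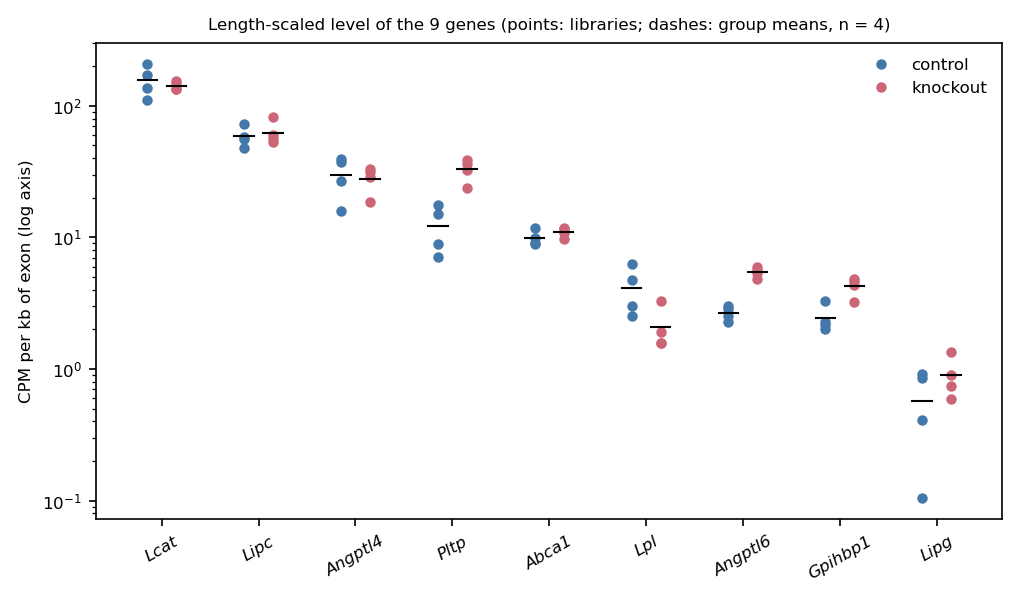
Level of each gene per kilobase of annotated exon in CPM per kb (vertical log axis), for control and knockout libraries (points) with group means (dashes). Lcat and Lipc are highest in both groups. By group means, Pltp stands above Angptl4 in knockout and below it in control, and Lpl stands below Angptl6 and Gpihbp1 in knockout. The libraries of Pltp and Angptl4 overlap in both groups, and those of Lpl and Gpihbp1 overlap in knockout.

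The 9 genes lie on 7 chromosomes of GRCm38. Lpl (ENSMUSG00000015568) spans 68880491 to 68907448 on chromosome 8, which also carries Lcat (ENSMUSG00000035237) at 105939551 to 105943382. Pltp (ENSMUSG00000017754) lies on chromosome 2 at 164839518 to 164857711 and Gpihbp1 (ENSMUSG00000022579) on chromosome 15 at 75596628 to 75599481. Angptl6 (ENSMUSG00000038742, 20873808 to 20879727) and Lipc (ENSMUSG00000032207, 70798128 to 70952226) are both on chromosome 9. Angptl4 (ENSMUSG00000002289) lies on chromosome 17, Lipg (ENSMUSG00000053846) on chromosome 18 and Abca1 (ENSMUSG00000015243) on chromosome 4. Apart from Pltp and Angptl6, none shared exon bases with another annotated gene.

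For each gene, the tested genes with the most similar course over the 8 libraries were found by the root mean square difference of centred log2 CPM. Angptl6 was closest to Tuba1c and Slc1a4 (both 0.154), and Pltp to Prss8 (0.188) and Tsc22d1 (0.191). Gpihbp1 was closest to Peds1 (0.0882) and Lrrc32 (0.147), and Lpl to Wsb1 (0.222) and Taf1d (0.237). Lipc was closest to Fermt2 (0.0300) and Rmdn1 (0.0712), and Angptl4 to Pgam5 (0.1001) and Slc25a33 (0.114). Lcat was closest to Por (0.0610) and Il4ra (0.0673), and Abca1 to Rcbtb1 (0.0474) and Hps5 (0.0658). Lipg, with few counts, had no close match, the nearest being Etnppl (0.382) and Hcn3 (0.421). For scale, the SD of the 9 genes over the 8 libraries ran from 0.170 (Abca1) to 1.03 (Lipg) on the same log2 scale.

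Other genes of the pathway were described from 7 lists with 95 genes, of which 84 were tested. By edgeR 0 of the 84 passed over all genes, where 0.0342% of all genes were called. At an unadjusted p under 0.05, 9 were higher and 11 lower, or 10.7% and 13.1% of the 84 against 5.55% and 8.47% of all genes. DESeq2 called 6 of them (4 higher, 2 lower), or 7.14% against 2.31% of all genes, and limma-voom 0. Knockout libraries all lay above the controls in 6 of the 84 (7.14%, against 3.22% of all genes) and all below them in 3 (3.57%, against 3.86%). Their median log2 fold change was −0.09, against −0.03 over all genes tested, and it turned to 0.067 without control 2, with 46 of the 84 above 0. The lists were chosen with earlier results known, so these shares are descriptions.

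Among the other angiopoietin-like genes, 3 of 5 were tested and Angptl8, a feeding-induced hepatocyte protein that acts with other family members on lipoprotein lipase, had the largest value. It stood at 29.1, 23.1, 24.9 and 44.7 CPM in controls 1 to 4 and at 102, 73.3, 74.6 and 70.4 CPM in knockouts 1 to 4, with no overlap (log2 fold change 1.40, SE 0.23, adjusted p = 0.0583, edgeR). Its reads may be shared with Dock6, within which it lies. The deposited counts of Angptl8 were whole numbers in every library, and exon bases shared with Dock6 were not computed. Dock6 was likewise higher in every knockout library than in any control, averaging 5.05 CPM in control and 12.27 CPM in knockout. The log2 fold change of Dock6 was 1.27 (SE 0.21, adjusted p = 0.0583, edgeR). The part of shared reads in the Angptl8 value was not tested. Angptl2, an inflammation-linked family member, had a value of 0.36 (adjusted p = 0.452). The median of 14 lipase cofactors and assembly factors was −0.07, with 6 above 0, and it turned to 0.067 without control 2, with 9 above 0, and to 0.044 among the libraries with Y-linked reads alone. Among them Apoc1, whose protein inhibits lipoprotein lipase, averaged 2861 ± 955 and 4918 ± 669 CPM without overlap (0.78, SE 0.25, adjusted p = 0.247). Apoc2, the obligate activator of lipoprotein lipase, averaged 150 CPM in control and 121 CPM in knockout (−0.31, adjusted p = 0.758, edgeR). The higher control mean rested on control 2. Apoc2 stood at 69.2, 317, 113 and 100 CPM in controls 1 to 4 and at 102, 125, 141 and 116 CPM in knockouts 1 to 4. Lmf1, a factor required for lipase folding, averaged 23.3 and 25.6 CPM (0.14, adjusted p = 0.837, edgeR).

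Of 18 other lipase genes, 11 were tested, with a median of 0.20 and 7 above 0. That median was near 0 without control 1 (0.018), control 2 (0.0067) or knockout 2 (0.015) and with a term for Y-linked reads (0.00049), 0.093 without knockout 4, and −0.045 among the libraries with Y-linked reads alone. Pnpla2 is the adipose triglyceride lipase that starts the breakdown of stored triglyceride. It was lower in every knockout library than in any control, at 43.2 ± 13.9 and 30.03 ± 3.25 CPM (−0.52, SE 0.21, adjusted p = 0.306, edgeR). The groups barely separated, with 33.44 CPM in control 1 and 33.15 CPM in knockout 4. Control 2 stood at 63.76 CPM, against 33.44 to 37.95 CPM in the other controls. Mgll, monoglyceride lipase, stood at 71.9 to 88.4 CPM in control and at 56.5 CPM in knockout 1 against 133 to 157 CPM in knockouts 2 to 4 (0.56, adjusted p = 0.377). The median of 12 tested lipoprotein and remnant receptors was −0.15, and it was −0.037 without control 1 and −0.067 without knockout 3. Among them the HDL receptor Scarb1 had a value of −0.24 (SE 0.16, adjusted p = 0.522) and Lrp6 one of −0.51 (SE 0.19, adjusted p = 0.289).

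Of 15 tested genes of HDL proteins and cholesterol efflux, 13 had values below 0, with a median of −0.32. Abcg8, which pairs with Abcg5 as the transporter that secretes sterol into bile, was lower in every knockout library, at 35.5 ± 3.94 and 23.4 ± 2.56 CPM (−0.60, SE 0.14, adjusted p = 0.139). Its partner Abcg5 had a value of −0.42 (SE 0.16, adjusted p = 0.285), and Abca8a, a relative of Abca1, one of −0.99 (SE 0.29, adjusted p = 0.213). The list's median ranged from −0.48 to −0.18 over the 19 alternatives.

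Targets of PPAR-alpha, the fatty acid receptor that also induces Angptl4, had a median of −0.61 over 16 tested genes, 3 of them above 0. That direction rested on control 2. In it Cyp4a14, a fatty acid hydroxylase, stood at 1386 CPM against 296 to 358 CPM in the other controls and 226 to 296 CPM in knockout, and Vnn1, pantetheinase, at 218 CPM against 48.2 to 70.0 and 49.5 to 72.0 CPM. Without control 2 the median was 0.20 with 11 of 16 above 0, and in the libraries with Y-linked reads alone it was 0.13. Angptl4 was also highest in control 2 (139 CPM), beside 133 CPM in control 3. Of 13 genes of LXR and sterol control, the group to which Abca1 and Pltp belong as known LXR targets, 9 were above 0, with a median of 0.15. That median was 0.098 without control 2, 0.071 without knockout 1, 0.10 without knockout 3 and 0.022 without controls 2 and 3, and among the libraries with Y-linked reads alone it was −0.057, with 6 of 13 above 0. Nr1h3, which encodes LXR-alpha, had a value of 0.15 (SE 0.16, adjusted p = 0.683). Srebf1, a lipogenic LXR target, stood at 155, 37.9, 72.7 and 158 CPM in controls 1 to 4 and at 140, 221, 217 and 217 CPM in knockouts 1 to 4 (0.91, SE 0.39, adjusted p = 0.335). Abcg1, an LXR target counted in the list of HDL proteins and cholesterol efflux and not among these 13, had a value of −0.57 (SE 0.32, adjusted p = 0.440).

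**Figure D4:**
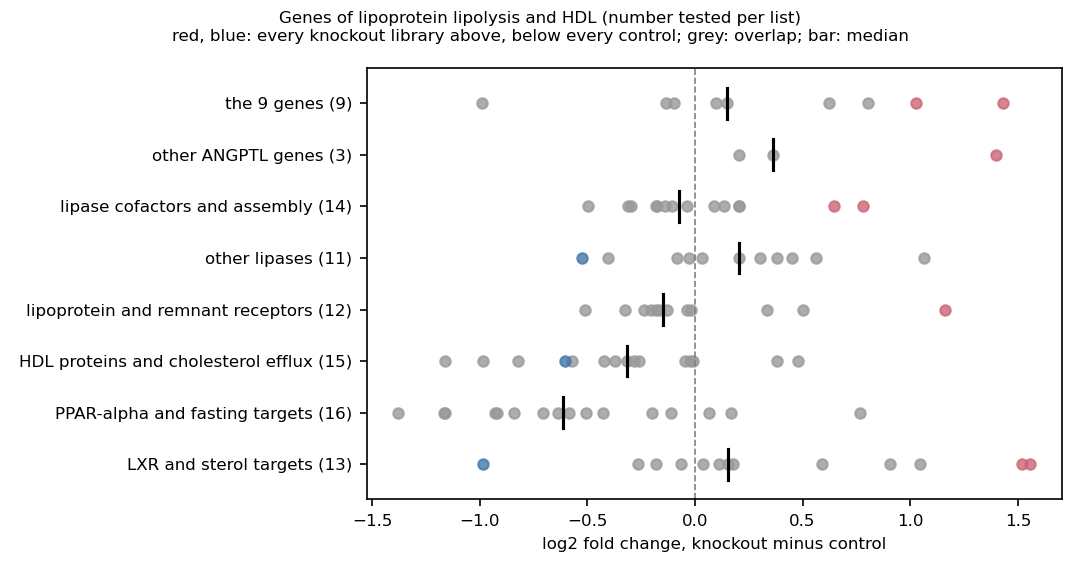
Log2 fold change of knockout minus control (horizontal axis) for the 9 genes and for each tested gene of the 7 lists (dots, the number tested in parentheses), coloured where every knockout library lay above (red) or below (blue) every control, with the median as a bar. Medians lie between −0.61 for PPAR-alpha targets and 0.36 for the other angiopoietin-like genes.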

How the data were processed

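RNA of frozen mouse liver was sequenced on an Illumina instrument, per the labels' protocols. The submitters' processing notes name CASAVA 1.8, Bowtie, TopHat2 and the build GRCm38. Not given in the sources used here are strand use, filters, annotation and the counting program. A table of estimated counts (expected counts per gene, not normalized) was deposited, 94.2% of them whole numbers, for 22183 genes.

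After rounding, filterByExpr and TMM scaling, the 4 knockout and 4 control samples were compared in edgeR 4.0.16 (R 4.3.3) by the quasi-likelihood F-test with no covariate, with Benjamini-Hochberg adjustment over 11692 genes and a threshold of 0.05. Each SE is the fold change over the root of the F statistic, and CPM use TMM-scaled library sizes. The labels do not say that samples are separate animals, so p-values measure the spread between these samples, part of which may be technical. Y-linked reads were present in some libraries of each group and nearly absent in others, so a group's libraries were not all from 1 animal. Totals of 15998391 to 19474696 counts set the precision; limits for a count of 0 use 3 counts per library and cover counting error only. No pair of libraries of 1 group agreed within sampling noise (lowest median chi-square per gene 1.29, knockouts 3 and 4). Exon lengths and positions came from GENCODE M21 (same build, 99.8% of identifiers matched), and promoters from RefSeq on GRCm38.p6. Libraries with more than 10 counts over Ddx3y, Eif2s3y, Kdm5d and Uty were taken as holding Y-linked reads. The test was tried on simulated counts, but no outcome of that trial is given here and no statement rests on it.

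The members and lists were chosen with earlier results of these data known. Genes named beyond the 9 were Stat3, overlapping genes, up to 4 genes of smallest p per list, and the 2 most similar genes (prior count 2, mean log2 CPM of at least 1). A part of those so selected is named, and some are not reported here. Apoc2, Lmf1, Abcg5, Nr1h3 and Abcg1 were named for their roles after their values were seen. Alternatives were other scalings and filters, DESeq2 1.42.0, limma-voom (limma 3.58.1), the replicate number as a block, libraries left out, Y-linked reads as a term or a restriction, and a threshold of 0.10.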

Additional observations from a re-analysis of the deposited data

Results flagged for a closer look

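In 4 of 38 groups of 4 libraries examined, 1 library stood apart by Dixon's criterion, which chance exceeds in about 5% of groups, and none of the 4 was a group of the 9 genes. Stat3 was low in control 3, at 46.8 CPM against 72.1 CPM in the nearest control. The summed hepatocyte markers were high in control 2 (339200 against 124400 CPM) and in knockout 1 (154400 against 106200 CPM). The summed stellate cell markers were high in knockout 1, at 384 CPM against 226 CPM in the nearest knockout. Most of the sum in knockout 1 was Dcn, at 269.9 CPM. Lrat, Des and Reln, 3 of the 6 markers, were higher in every knockout library than in any control, while Dcn, Col1a1 and Rgs5 overlapped. The part of any of these in the values of the 9 genes was not tested.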

How the results depend on the processing

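With 4 samples a group, calls depended on the setting. The 9 genes gave 0 calls in the reported fit, and over all genes there were 4. The number called among the 9, among the 84 other pathway genes and among all genes was 2, 2 and 62 with no filter on low counts, 3, 6 and 269 by DESeq2, 1, 1 and 27 with a term for Y-linked reads, 2, 5 and 125 in libraries with Y-linked reads alone, 1, 3 and 187 without controls 2 and 3, and 2, 2 and 79 at an adjusted p under 0.10. Upper quartile scaling called 0, 1 and 11, library totals alone 0, 0 and 1, a filter of 1 CPM in 4 libraries 0, 0 and 8, and limma-voom 0, 0 and 0. Leaving out 1 library at a time gave 0 to 2, 0 to 3 and 0 to 324, highest without control 3. Over all genes, dropping knockout 1 gave 67 calls, dropping control 2 gave 7, dropping control 1 gave 1, and dropping control 4 or knockout 2, 3 or 4 gave 0. With the replicate number as a block the counts were 0, 0 and 0. Deviations of same-numbered libraries correlated at 0.33, −0.24, 0.10 and 0.18 across genes, 2 of 4 controls being closest to their own number, so the numbers were not taken as pairs. Pltp, Angptl6, Gpihbp1, Lpl, Lipg and Abca1 kept their sign in all 19 alternatives. The sign turned for Angptl4 without control 2 (0.061), control 3 (0.031), knockout 1 (0.056) or controls 2 and 3 (0.38), for Lipc without knockout 1 (−0.056) or with Y-linked reads alone (−0.21), and for Lcat without control 2 (0.033) or with Y-linked reads alone (0.043). With 1 library left out, their values ran from −0.30 to 0.061 (Angptl4), from −0.056 to 0.22 (Lipc) and from −0.27 to 0.033 (Lcat). Pltp passed in 6 alternatives, Angptl6 in 4 and Gpihbp1 in 2, and Stat3 missed in 9. The cause of these shifts was not tested. Lipg had the fewest counts of the 9, 7 to 106, and its SE was 0.51, or 0.36 without control 2.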
